A study of Rattus norvegicus with 320 samples.

Results

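The change of the miRNA profile of the rat uterus between 2 and 6 weeks of age is described here, from the 4 uterus libraries of week 6 and the 4 of week 2, taken by their organ and age labels and read over every miRNA of the count table. Of these miRNAs 74 were called higher, 119 lower and 423 neither, as described below. These 8 libraries are part of a series of 320 small RNA libraries of 11 organs at 4 ages in both sexes of the Fischer 344 rat, an inbred strain (the sample labels spell it Fisher 344). All 8 animals were pair-housed females, each library came from the uterus of a single rat, and total RNA was extracted from ground organ tissue. The tissue of a uterus holds endometrial epithelium, glands, stroma, smooth muscle, vessels and blood, and in such bulk RNA fewer cells of a type cannot be told apart from less RNA per cell. The stage of the ovarian cycle and the onset of puberty of the week 6 animals are not given in the sources used here. Groups are named by age alone in the following, since strain, sex and organ were the same in all 8.

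MicroRNAs are short RNAs that guide Argonaute proteins to messenger RNAs, mostly through bases 2 to 8 of the miRNA, the seed, and lower the output of those messages. At week 2 the rat uterus is an immature organ whose glands are still forming and whose inner and outer muscle layers are being built, and week 6 lies around puberty, when ovarian steroids begin to act on the organ. MiR-143 and miR-145 are known from smooth muscle, the miR-200 family from epithelium, miR-142 and miR-223 from leukocytes, and the large imprinted miRNA clusters from fetal and early postnatal growth.

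The mature sequences of the miRNAs that the comparison turns on are printed first, 5′ to 3′, as the count table gives them, with the seed in capitals. The first set holds miRNAs that rose and miR-141-3p, which did not pass the test and is shown for the seed it shares with miR-200a-3p. MiR-146a and miR-146b share a seed, as do the 3 members of the miR-29 family, and the miR-200 family falls into 2 seed groups that differ at 1 base.
miR-21-5p: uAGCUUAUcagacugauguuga
miR-146a-5p: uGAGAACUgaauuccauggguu
miR-146b-5p: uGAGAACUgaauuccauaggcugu
miR-223-3p: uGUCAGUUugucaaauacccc
miR-143-3p: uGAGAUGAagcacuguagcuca
miR-29a-3p: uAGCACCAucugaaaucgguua
miR-29b-3p: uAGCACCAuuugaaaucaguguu
miR-29c-3p: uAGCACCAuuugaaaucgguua
miR-200b-3p: uAAUACUGccugguaaugaugac
miR-429: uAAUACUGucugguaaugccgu
miR-200a-3p: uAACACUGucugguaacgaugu
miR-141-3p: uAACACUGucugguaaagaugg

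The second set holds miRNAs that fell, from the imprinted cluster of chromosome 6 (miR-127-3p and miR-434-3p), from the Mest locus (miR-335) and from other places (miR-122-5p and miR-202-5p).
miR-127-3p: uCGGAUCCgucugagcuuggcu
miR-434-3p: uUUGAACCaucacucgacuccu
miR-335: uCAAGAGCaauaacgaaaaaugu
miR-122-5p: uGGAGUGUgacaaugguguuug
miR-202-5p: uUCCUAUGcauauacuucu

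The third set holds miRNAs with a common seed but different values. MiR-195-5p and miR-497-5p rose while miR-322-5p, with the same seed, fell, although its fall was not called without library 4 of week 2. MiR-351-5p shares its seed with miR-125b-5p, and miR-34a-5p shares its own with miR-34c-5p and miR-449a-5p. MiR-203a-3p and miR-203b-3p carry near names but different seeds.
miR-195-5p: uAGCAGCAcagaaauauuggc
miR-497-5p: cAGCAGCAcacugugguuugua
miR-322-5p: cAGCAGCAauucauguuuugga
miR-351-5p: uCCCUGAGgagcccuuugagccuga
miR-125b-5p: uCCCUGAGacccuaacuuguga
miR-34a-5p: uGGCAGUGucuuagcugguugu
miR-34c-5p: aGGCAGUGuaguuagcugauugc
miR-449a-5p: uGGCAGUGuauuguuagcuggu
miR-203a-3p: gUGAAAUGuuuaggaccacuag
miR-203b-3p: uUGAACUGuuaagaaccacugg

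The libraries held 2310014 to 6814562 counts at week 2 and 4717063 to 6291223 at week 6. Levels are given as normalised CPM, that is counts scaled to a common library total (CPM) after TMM scaling, which sets the middle of the log ratios between libraries to a common point, and a level compares libraries, not miRNAs. The TMM factors were 1.17 to 1.64 at week 2 and 0.708 to 1.18 at week 6. On log2 CPM, replicates correlated at 0.961 to 0.988 within week 2, at 0.984 to 0.990 within week 6 and at 0.934 to 0.973 between the ages. Libraries 2 and 4 of week 2 and library 2 of week 6 stood apart in miR-449a-5p, which is known from ciliated epithelium, with 237, 177 and 95.3 normalised CPM against 8.80 to 16.4 in the other 5. Library 4 of week 2 was also the highest of its group in several gonadal miRNAs, and library 1 of week 6 was the lowest of its group in miR-146b-5p, in miR-203a-3p and in several members of the miR-200 family.

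Of all miRNAs tested, 74 were higher at week 6 (12.0%), 119 were lower (19.3%) and 423 were not called by edgeR's quasi-likelihood test at a Benjamini-Hochberg adjusted p-value under 0.05, to which all adjusted p-values of the age comparison refer. A change of at least 2-fold was found for 51 of the rises (8.28% of all miRNAs) and 105 of the falls (17.0%). The counts of list members given below are to be read beside these shares. The rises included miRNAs of smooth muscle, epithelium, leukocytes and inflammation and the miR-29 family. Among members of the epithelial and leukocyte lists, miR-205, miR-203b-3p and miR-150-5p fell. Of the 119 falls, 52 were in the list of the imprinted cluster of chromosome 6 and 10 in the miR-322 to miR-450 cluster of chromosome X. The 4 week 6 libraries lay entirely above or below the 4 of week 2 for 142 of the 193 called miRNAs, while this held for 164 of all miRNAs (26.6%). At week 6, 21 of the 119 miRNAs that fell were at 3 counts or fewer in every library, and at week 2 this held for 4 of the 74 that rose, so that the size of their fold change depends on the prior count of the fit.

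The split between rises and falls depended on the scaling. With library size only, 30 miRNAs were higher and 193 lower, so that rises made up 13.5% of the calls in place of 38.3%, and the log2 fold changes moved by a median of -0.51. With the sequencing lane as a further factor 38 were higher and 66 lower, and without the 3 libraries high in miR-449a-5p 51 were higher and 69 lower. Lanes 1 and 3 each held 1 library of either age. Within lane 1 the difference had the called direction for 74 of 74 rises and 116 of 119 falls, and within lane 3 for 67 of 74 and 116 of 119. The calls were made from these same libraries among others, so this agreement was largely fixed in advance and is no separate test of the lane.

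**Figure D1:**
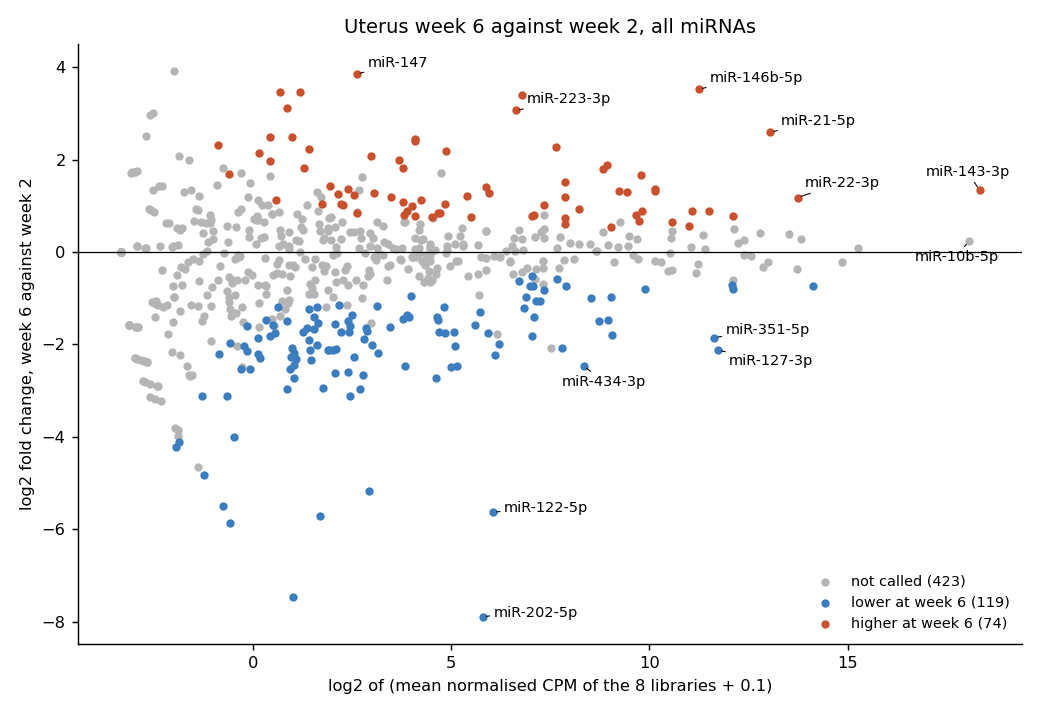
Log2 fold change of week 6 against week 2 (vertical axis) of each miRNA over its log2 mean level in the 8 uterus libraries (horizontal axis, normalised CPM with 0.1 added). Orange and blue points are the 74 miRNAs called higher and the 119 called lower, and grey points are the 423 not called.

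The most abundant miRNAs of the uterus came from few genes. MiR-10b-5p, transcribed from a Hox gene cluster, made up 34.1% ± 7.45 (SD, n = 4) of the counts at week 2 and 27.1% ± 3.08 at week 6, and miR-143-3p made up 26.2% ± 2.69 and 44.4% ± 0.480. The order of the leading pair was thus reversed between the ages in the mean. The 10 most abundant miRNAs together took 81.4% ± 3.39 (SD, n = 4) of the counts at week 2 and 86.5% ± 1.98 at week 6. No let-7 miRNA was found in the count table, so these ranks and shares leave that family out.

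MiR-143-3p stood at 216664, 187270.0, 183720.0 and 156925 normalised CPM at week 2 and 406264, 468375, 630776 and 379793 at week 6. All week 6 libraries lay above all week 2 libraries (log2 fold change 1.34 ± 0.21 (SE), adjusted p = 6.04e-05). MiR-10b-5p stood at 355758, 280702, 150269 and 210726 normalised CPM at week 2 and 246278, 278110.0, 443087 and 204546 at week 6, and the groups overlapped (log2 fold change 0.23 ± 0.28 (SE), adjusted p = 0.563, and -0.33 with library size only). MiR-10a-5p, its paralog from another Hox cluster, was at 23868 to 50242 normalised CPM at week 2 and 29028 to 52354 at week 6 (log2 fold change 0.09 ± 0.23 (SE), adjusted p = 0.804, and -0.45 with library size only).

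Among the other abundant miRNAs, miR-22-3p, a widely expressed miRNA, stood at 7458, 6554, 10824 and 8583 normalised CPM at week 2 and 18203, 17306, 20028 and 20238 at week 6. Its groups did not overlap (log2 fold change 1.18 ± 0.18 (SE), adjusted p = 3.37e-05). MiR-181a-5p, of a family known from lymphocyte development, stood at 17202, 21728, 23516 and 26002 normalised CPM at week 2 and 15369, 12891, 17389.7 and 7904 at week 6. It was lower at week 6 with overlapping groups (log2 fold change -0.72 ± 0.22 (SE), adjusted p = 0.0157), and without library 4 of week 6 it was not called, at -0.54 (adjusted p = 0.0544), nor without the 3 libraries high in miR-449a-5p, at -0.48 (adjusted p = 0.275). The log2 fold changes of miR-26a-5p (-0.21), miR-99b-5p (-0.37), miR-148a-3p (-0.21), miR-27b-3p (0.29) and miR-191a-5p (0.40) did not pass the test, with adjusted p-values of 0.41, 0.451, 0.451, 0.15 and 0.18. With library size only, the first 3 were called lower, at -0.80, -0.94 and -0.75, and the last 2 changed sign, to -0.28 and -0.15. MiR-21-5p was among the 10 most abundant at week 6 and not at week 2.

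All 4 measured arms of miR-143 and miR-145, which are cut from neighbouring precursors and keep smooth muscle cells in their contractile state, were higher at week 6, with a median log2 fold change of 0.89 against -0.15 over all miRNAs. MiR-145-5p stood at 3448, 2401, 1486 and 864 normalised CPM at week 2 and 3563, 4196, 3643 and 3763 at week 6. The lowest week 6 value lay just above the highest week 2 value, and the call (log2 fold change 0.89 ± 0.30 (SE), adjusted p = 0.0263) was lost without library 3 of week 2, at 0.71 (adjusted p = 0.108), and without library 2 of week 6, at 0.83 (adjusted p = 0.0602). MiR-145-3p rose by 0.89 and miR-143-5p by 0.80 on the log2 scale (adjusted p = 0.00702 and 0.00692). With library size only, miR-143-3p was the 1 arm of the 4 still called, and with the lane as a factor 2 were. The same arm was the only one called without the 3 libraries high in miR-449a-5p, where miR-145-5p was at 0.65 (adjusted p = 0.163), miR-145-3p at 0.70 (adjusted p = 0.0873) and miR-143-5p at 0.79 (adjusted p = 0.0502).

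Of the 8 measured arms of miR-1, miR-133 and miR-206, known from striated muscle and present in smooth muscle as well, 3 were higher and none was lower. MiR-133a-3p stood at 715, 698, 769.9 and 447 normalised CPM at week 2 and 1023, 972, 1221 and 952 at week 6, without overlap of the groups (log2 fold change 0.66 ± 0.20 (SE), adjusted p = 0.0131). MiR-1b stood at 30.5, 43.0, 28.0 and 26.3 normalised CPM at week 2 and 94.7, 86.2, 105 and 55.2 at week 6, also without overlap (log2 fold change 1.41 ± 0.23 (SE), adjusted p = 8.2e-05), while miR-1-3p, which differs from it by 1 base, was not called, so that the division of reads between them is uncertain. The same holds for miR-133a-3p, miR-27a-3p, miR-200b-3p, miR-450a-5p and miR-7a-5p, each of which has a measured paralog within 1 base. Under library size only miR-133a-3p was at 0.11 (adjusted p = 0.798), and it was also not called without the 3 libraries high in miR-449a-5p, at 0.63 (adjusted p = 0.0764), or with the lane as a factor, at 0.68 (adjusted p = 0.0765).

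Large rises were found for miR-21 and miR-146, which respond to inflammatory signals and to growth stimuli. Of the 6 measured arms of miR-21, miR-146a and miR-146b, 5 were at least 2-fold higher and none was lower, with a median log2 fold change of 2.37 and a summed level of 2933 to 3416 normalised CPM at week 2 and 11997 to 29074 at week 6. MiR-21-5p stood at 2709.8, 2462, 2311 and 2128 normalised CPM at week 2 and 9821, 15168, 19019 and 14047 at week 6. Each week 6 library was above 3 times the highest week 2 library (log2 fold change 2.59 ± 0.20 (SE), adjusted p = 1.41e-08). Its other arm, miR-21-3p, stood at 22.0, 15.9, 21.7 and 17.9 normalised CPM at week 2 and 88.9, 203, 211 and 309.6 at week 6, again without overlap (log2 fold change 3.39 ± 0.30 (SE), adjusted p = 6.29e-08).

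MiR-146b-5p stood at 348, 403, 281 and 517 normalised CPM at week 2 and 1123, 5247, 7839.6 and 3715 at week 6. Library 1 of week 6 was the lowest of its group and still above every week 2 library (log2 fold change 3.53 ± 0.47 (SE), adjusted p = 3.37e-05). MiR-146a-5p, with the same seed but from a gene on another chromosome, stood at 335, 389, 318 and 661 normalised CPM at week 2 and 962, 1723, 2001 and 698 at week 6. The groups did not overlap, although library 4 of week 2 came close to library 4 of week 6 (log2 fold change 1.66 ± 0.32 (SE), adjusted p = 0.000478).

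Leukocyte miRNAs were measured as 8 arms of miR-142, miR-150, miR-155 and miR-223, of which 5 were at least 2-fold higher and 1 was lower. MiR-223-3p, a miRNA of neutrophils and other myeloid cells, stood at 23.5, 18.4, 26.2 and 16.7 normalised CPM at week 2 and 76.5, 244, 189.9 and 199.8 at week 6, without overlap (log2 fold change 3.07 ± 0.32 (SE), adjusted p = 5.74e-07). MiR-142-5p, found in all blood cell lineages, stood at 202, 136, 159 and 342 normalised CPM at week 2 and 673, 719, 822 and 869.5 at week 6, also without overlap (log2 fold change 1.88 ± 0.23 (SE), adjusted p = 4e-06), and miR-142-3p rose by 2.19 on the log2 scale (adjusted p = 2.56e-05). MiR-155-5p, induced in activated lymphocytes and macrophages, was at 9.78 to 16.3 normalised CPM at week 2 and 21.1 to 28.2 at week 6 (log2 fold change 1.14 ± 0.22 (SE), adjusted p = 0.00044). With library size only miR-155-5p was not called, at 0.58 (adjusted p = 0.1135), and 4 of the 8 arms were higher.

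MiR-150-5p, the miRNA of mature lymphocytes, went the other way. It stood at 314, 208, 359.7 and 312 normalised CPM at week 2 and 283, 149, 156 and 124 at week 6. The groups overlapped, and the call (log2 fold change -0.74 ± 0.24 (SE), adjusted p = 0.024) was lost in 6 of 16 alternatives, with adjusted p-values of up to 0.109, among them the one without the 3 libraries high in miR-449a-5p, at -0.73 (adjusted p = 0.0834), and those without library 2 (-0.67), library 3 (-0.68) or library 4 (-0.60) of week 6. The summed level of the leukocyte list was 382 to 706 normalised CPM at week 2 and 1093 to 1297 at week 6. The part of leukocyte RNA in the levels of miR-21 and miR-146 was not tested.

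Blood and vessel markers did not pass the test. None of the 5 arms of the red cell miRNAs miR-451, miR-144 and miR-486 and neither arm of the endothelial miR-126 was called, at summed levels of 373 to 949.9 normalised CPM at week 2 and 494 to 1399.9 at week 6 for the first and 3863 to 5972 normalised CPM at week 2 and 5475 to 9059.6 at week 6 for the second. None of the 4 arms of the mesenchymal miR-199a and miR-214 was called, with a median log2 fold change of 0.11.

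In the miR-29 family, which targets collagen and elastin messages, 6 of 7 measured arms were at least 2-fold higher, with a median log2 fold change of 1.80. MiR-29a-3p stood at 206, 175, 229 and 198 normalised CPM at week 2 and 891, 685, 586 and 641 at week 6. The groups were far apart (log2 fold change 1.80 ± 0.19 (SE), adjusted p = 5.74e-07). MiR-29b-3p stood at 9.41, 5.41, 3.17 and 2.98 normalised CPM at week 2 and 20.4, 25.8, 29.0 and 39.6 at week 6 (log2 fold change 2.41 ± 0.30 (SE), adjusted p = 5.14e-06), and miR-29c-3p, which differs from miR-29a-3p at 1 base so that reads could be divided between them uncertainly, rose by 1.22 on the log2 scale (adjusted p = 8.96e-05). Neither of them overlapped between the ages.

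**Figure D2:**
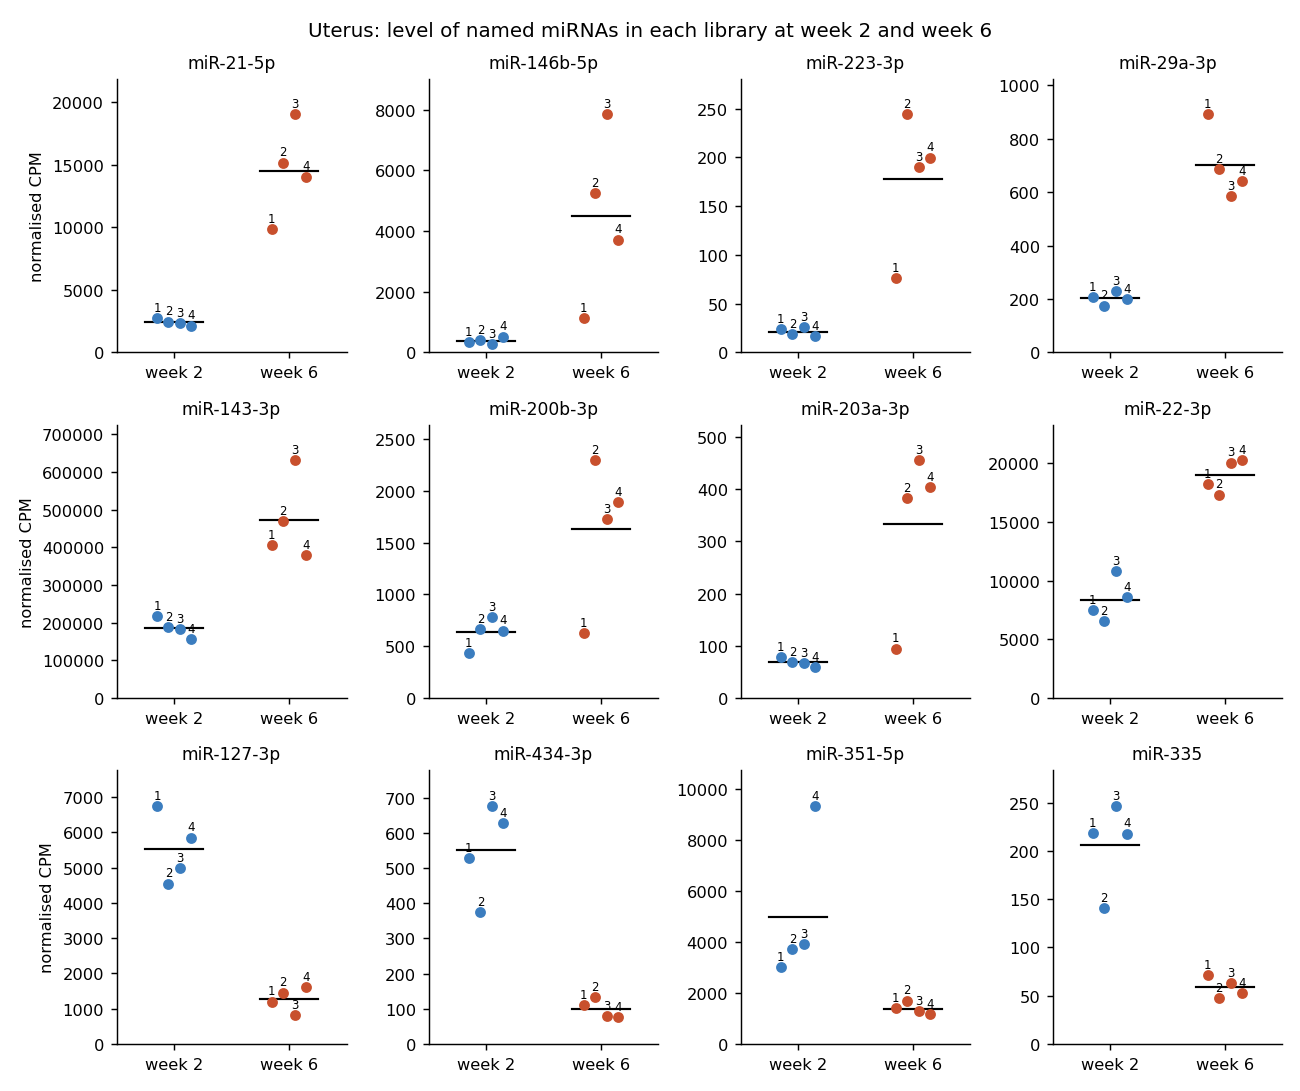
Level of 12 miRNAs in each uterus library (vertical axes, normalised CPM, each starting at 0) at week 2 (blue) and week 6 (orange), with the library number beside each point and a black line at the mean of 4. The upper 8 were called higher and the lower 4 lower at week 6, and library 1 of week 6 lies near the week 2 libraries for miR-200b-3p and miR-203a-3p.

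MiR-200b-3p, miR-200a-3p, miR-429, miR-141-3p and miR-203a-3p stood higher in 3 of the 4 week 6 libraries than in library 1 of that age. Of 9 measured arms of the miR-200 family, which keeps cells in the epithelial state by lowering the Zeb repressors, 6 were at least 2-fold higher and none was lower, with a median log2 fold change of 1.24. MiR-200b-3p stood at 432, 666, 782 and 650.4 normalised CPM at week 2 and 625, 2294, 1725 and 1889 at week 6. Library 1 of week 6 lay below libraries 2, 3 and 4 of week 2, while the other 3 were higher than all of week 2 (log2 fold change 1.37 ± 0.33 (SE), adjusted p = 0.00397). MiR-200a-3p stood at 123, 140.2, 123 and 96.9 normalised CPM at week 2 and 156, 364, 378 and 487 at week 6, without overlap (log2 fold change 1.52 ± 0.30 (SE), adjusted p = 0.00057).

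MiR-429 was at 348 to 425 normalised CPM at week 2 and 381 to 1409 at week 6, a 2.47-fold rise (adjusted p = 0.00432). MiR-141-3p did not pass the test (log2 fold change 0.65 ± 0.32 (SE), adjusted p = 0.132), but without library 1 of week 6 it was called, at 0.93 (adjusted p = 0.00959). Summed over the family, library 1 of week 6 held 1530.1 normalised CPM, within the range of 1494 to 1921 at week 2, and the other 3 held 3671 to 5296. With the lane as a factor 2 of the 9 arms were called, and without the 3 libraries high in miR-449a-5p 4 were, and miR-200b-3p and miR-429 were called in neither. In the second case miR-200b-3p was at 1.34 (adjusted p = 0.0573) and miR-429 at 1.26 (adjusted p = 0.0655). With library size only 2 arms were called, and miR-200b-3p (0.78, adjusted p = 0.0799) and miR-429 (0.78, adjusted p = 0.0993) were not.

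Of the 4 measured arms of miR-203 and miR-205, known from stratified epithelium, 1 was higher and 2 were lower. MiR-203a-3p, which halts the division of keratinocytes, stood at 78.3, 69.2, 67.4 and 60.0 normalised CPM at week 2 and 94.7, 382, 455 and 404 at week 6. All 4 week 6 libraries lay above week 2, but library 1 only slightly (log2 fold change 2.28 ± 0.41 (SE), adjusted p = 0.00044), and with the lane as a factor the rise was not called, at 1.72 (adjusted p = 0.12). MiR-205, known from basal epithelial cells, stood at 164, 174, 240.0 and 183 normalised CPM at week 2 and 106, 96.4, 84.4 and 79.5 at week 6 and fell without overlap (log2 fold change -1.05 ± 0.30 (SE), adjusted p = 0.00998). Library 1 of week 6 was the highest of its group here, and without the 3 libraries high in miR-449a-5p the fall was not called, at -1.05 (adjusted p = 0.057). MiR-203b-3p, also lower, was at 16.5 to 31.7 normalised CPM at week 2 and 1.78 to 11.7 at week 6 (log2 fold change -1.40 ± 0.42 (SE), adjusted p = 0.0155).

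In the miR-34 and miR-449 family, 1 of 8 arms was called. MiR-34a-5p, a target of p53, was at 7.29, 6.17, 5.55 and 4.81 normalised CPM at week 2 and 16.0, 23.8, 22.9 and 22.7 at week 6 (log2 fold change 1.82 ± 0.22 (SE), adjusted p = 3.47e-06). MiR-449a-5p stood at 8.80, 237, 16.4 and 177 normalised CPM at week 2 and 8.86, 95.3, 12.2 and 12.1 at week 6, with 3 high libraries of both ages, and was not called (log2 fold change -1.78, adjusted p = 0.183). Without library 2 of week 6 alone it was called lower, at -3.32 (adjusted p = 0.0152), and without all 3 high libraries it was at -0.06 (adjusted p = 0.979). MiR-34c-5p stood at 97.9, 444, 116 and 285 normalised CPM at week 2 and 127, 406, 121 and 88.8 at week 6, high in the same 3 libraries.

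Further rises among the 15 largest were those of low-abundance miRNAs. MiR-147, induced in activated macrophages, stood at 0.304, 1.19, 0 and 1.37 normalised CPM at week 2 and 5.47, 9.99, 12.5 and 17.5 at week 6 (log2 fold change 3.85 ± 0.48 (SE), adjusted p = 4e-06). MiR-7a-5p, known from endocrine cells, stood at 3.79, 3.57, 1.85 and 2.29 normalised CPM at week 2 and 5.91, 18.4, 17.0 and 9.70 at week 6 (log2 fold change 2.08 ± 0.36 (SE), adjusted p = 0.000168). MiR-200a-5p was at 2.75 to 6.08 normalised CPM at week 2 and 6.35 to 29.2 at week 6 (log2 fold change 1.99 ± 0.36 (SE), adjusted p = 0.000251). The groups did not overlap for any of these 3. Without the 3 libraries high in miR-449a-5p, miR-147 was at 5.88 (adjusted p = 1.49e-06). MiR-293-5p, of a cluster known from early embryonic cells, stood at 1.06, 1.62, 5.02 and 14.0 normalised CPM at week 2 and 12.6, 28.4, 49.1 and 22.3 at week 6. Library 4 of week 2 reached above the lowest week 6 library (log2 fold change 2.44 ± 0.58 (SE), adjusted p = 0.00443). Without that library the rise was 3.58 (adjusted p = 1.17e-05), and with the lane as a factor the rise was not called, at 2.57 (adjusted p = 0.0584).

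The falls were led in number by the Dlk1-Dio3 region, an imprinted locus on chromosome 6 whose miRNAs are transcribed from the maternal chromosome. Of the 81 measured mature miRNAs on its list, 52 were lower and none was higher, all 52 by at least 2-fold, where 17.0% of all miRNAs were. The median log2 fold change was -1.67, or -1.50 with the 14 members at 3 counts or fewer in 1 age set to the bound that 3 counts allow and the 10 at that floor in both ages left out, against -0.15 and -0.06 over all miRNAs. The summed level of the 81 was 6377 to 9143 normalised CPM at week 2 and 1422 to 2298 at week 6. With the lane as a factor 36 were lower, and without the 3 libraries high in miR-449a-5p 40 were.

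MiR-127-3p, which lies antisense to the retrotransposon-derived gene Rtl1 and is the most abundant of the region, stood at 6749, 4547, 4982 and 5854 normalised CPM at week 2 and 1197, 1453, 809 and 1609 at week 6. All week 6 libraries were below all week 2 libraries (log2 fold change -2.13 ± 0.23 (SE), adjusted p = 7.13e-07). MiR-434-3p, from the same antisense transcript, stood at 527, 375, 676 and 628 normalised CPM at week 2 and 110.5, 132, 79.1 and 76.7 at week 6, without overlap (log2 fold change -2.47 ± 0.26 (SE), adjusted p = 5.74e-07). MiR-411-5p, from the larger group of the region, stood at 927, 655, 895 and 836 normalised CPM at week 2 and 202, 236, 229 and 282 at week 6, without overlap (log2 fold change -1.80 ± 0.19 (SE), adjusted p = 5.74e-07).

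MiR-541-5p, also from the region, stood at 154, 152, 226 and 288 normalised CPM at week 2 and 75.0, 115, 117 and 84.7 at week 6. It too did not overlap (log2 fold change -1.06 ± 0.27 (SE), adjusted p = 0.00541). MiR-410-3p fell by 1.75 and miR-136-3p by 1.29 on the log2 scale (adjusted p = 1.8e-05 and 0.000472). Among the 15 largest falls, miR-496-3p, miR-431 and miR-369-5p, at 7.14 to 82.5 normalised CPM at week 2, had log2 fold changes of -2.65, -2.47 and -2.18 without overlap. MiR-409a-5p (-2.47) overlapped, since library 1 of week 2 held 6.22 normalised CPM and the other 3 held 26.0 to 32.5, and it was not called without the 3 libraries high in miR-449a-5p, at -2.01 (adjusted p = 0.17).

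By RefSeq gene order the region was present as 2 runs of neighbours. In the run from miR-379 onward 38 of 59 mature miRNAs were lower, and in the run that holds miR-127 13 of 22 were. The first run includes miR-1193-3p and miR-6331 and the second miR-1188-5p, which are not on the list of the region. Some listed miRNAs, such as miR-127-5p, lie in neither run. Other imprinted loci fell as well. Of the 5 measured arms of miR-335 (Mest), miR-483 (Igf2) and miR-675 (H19), 4 were at least 2-fold lower, with a median log2 fold change of -1.81. MiR-335 stood at 218, 141, 247 and 218 normalised CPM at week 2 and 71.6, 47.1, 63.1 and 52.8 at week 6, without overlap (log2 fold change -1.81 ± 0.24 (SE), adjusted p = 1.04e-05). MiR-483-3p was at 5.30 to 10.5 normalised CPM at week 2 and 0.519 to 1.78 at week 6 (log2 fold change -2.62 ± 0.52 (SE), adjusted p = 0.00061). MiR-296-5p and miR-298-5p, from the imprinted Gnas region, were among the 15 largest falls as well, with log2 fold changes of -2.96 and -2.22 (adjusted p = 0.000507 and 0.000177) and without overlap.

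In the cluster of miR-322, miR-503, miR-351, miR-542 and miR-450 on chromosome X, known for restraining the cell cycle and for its high level in growing tissue, 10 of 12 measured arms were lower and none was higher, with a median log2 fold change of -1.53. The count was 7 with the lane as a factor and 6 without the 3 libraries high in miR-449a-5p. MiR-351-5p, the most abundant, stood at 3019, 3717, 3909.7 and 9336 normalised CPM at week 2 and 1407, 1697, 1280.4 and 1159.7 at week 6. Library 4 of week 2 was far above the others, and the groups did not overlap (log2 fold change -1.85 ± 0.27 (SE), adjusted p = 3.37e-05). MiR-450a-5p stood at 519.8, 464, 710.5 and 822 normalised CPM at week 2 and 217, 201, 199 and 272 at week 6, without overlap (log2 fold change -1.50 ± 0.20 (SE), adjusted p = 8.49e-06).

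Both arms of miR-322 were lower. MiR-322-3p stood at 173, 211, 363 and 692 normalised CPM at week 2 and 96.9, 89.1, 88.0 and 67.0 at week 6, without overlap (log2 fold change -2.08 ± 0.34 (SE), adjusted p = 0.00011). MiR-322-5p stood at 365, 306, 431 and 1839.7 normalised CPM at week 2 and 247, 257, 246 and 312 at week 6, and the groups overlapped (log2 fold change -1.47 ± 0.43 (SE), adjusted p = 0.015). Without library 4 of week 2 it was not called, at -0.47 (adjusted p = 0.0629), and without the 3 libraries high in miR-449a-5p it was at -0.46 (adjusted p = 0.208). MiR-503-3p was at 21.4 to 104 normalised CPM at week 2 and 4.83 to 14.2 at week 6 (log2 fold change -2.50 ± 0.41 (SE), adjusted p = 0.000121) and miR-542-3p at 140.3 to 192 normalised CPM at week 2 and 69.9 to 116 at week 6 (log2 fold change -0.73 ± 0.21 (SE), adjusted p = 0.0111), both without overlap. The fall of miR-542-3p was not called without the 3 libraries high in miR-449a-5p, at -0.54 (adjusted p = 0.191).

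**Figure D3:**
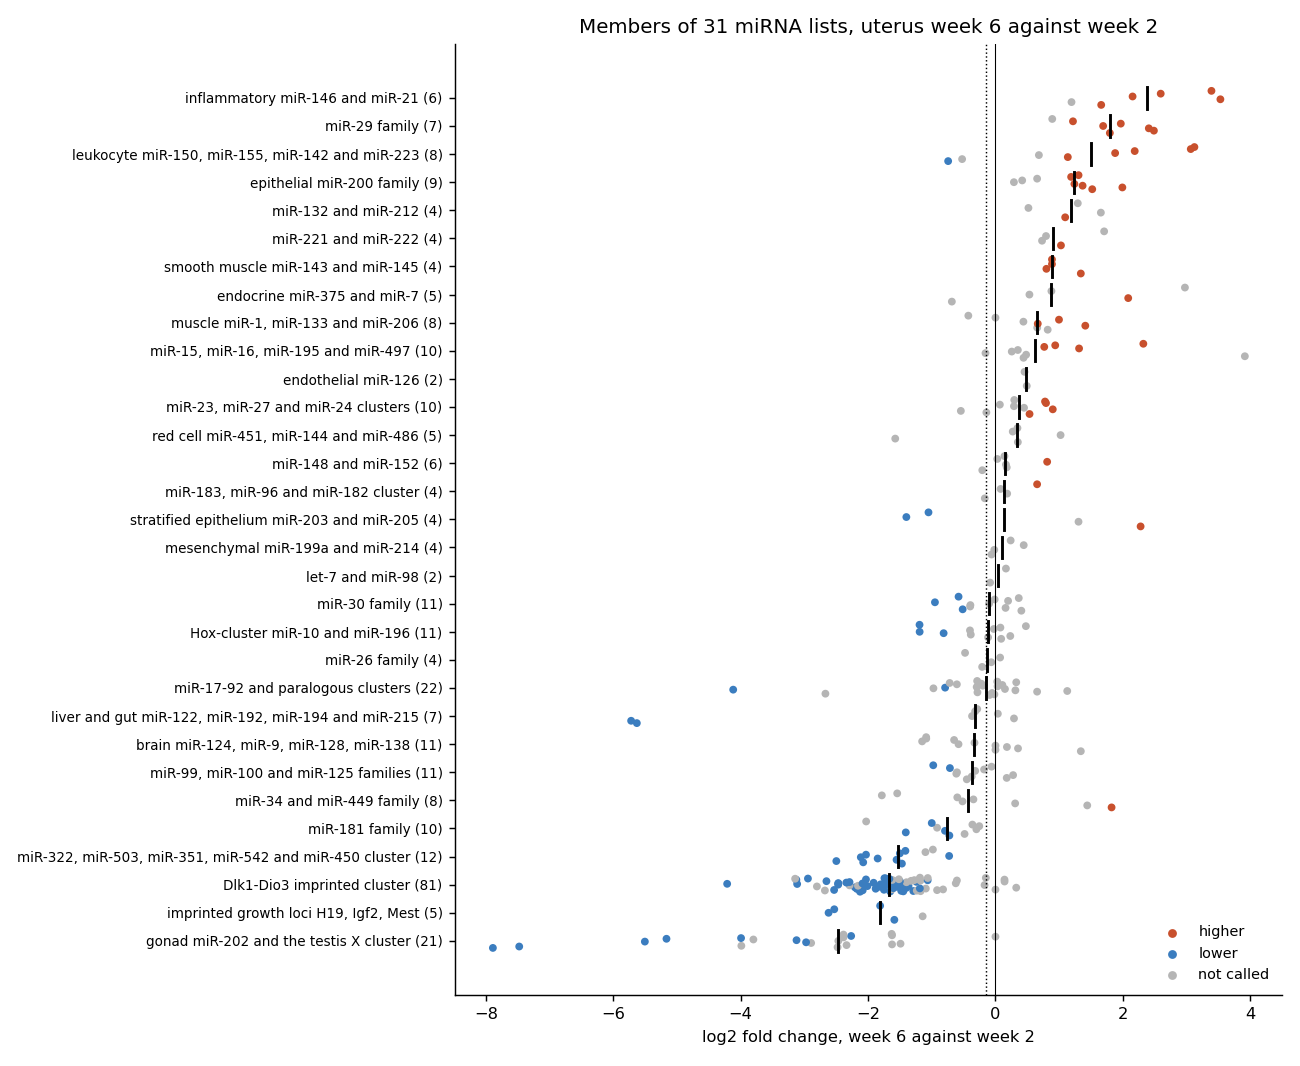
Log2 fold change of week 6 against week 2 (horizontal axis) of each member of 31 miRNA lists (vertical axis, number of measured members in brackets), orange where called higher, blue where called lower and grey where not called. Black bars are list medians and the dotted line is the median of all miRNAs, -0.15, and the lists are ordered by their medians from -2.48 (gonad and testis X cluster) to 2.37 (miR-146 and miR-21).

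MiR-322-5p carries the seed AGCAGCA, which it shares with miR-15a, miR-15b, miR-16, miR-195 and miR-497, printed above in part. Among the 16 seeds shared by at least 3 of the measured miRNAs, this was the only one with members called in both directions. That rests on the fall of miR-322-5p, which was not called without library 4 of week 2, at -0.47 (adjusted p = 0.0629). With the lane as a factor it was not called either, at -0.80 (adjusted p = 0.309). MiR-195-5p stood at 492, 277, 341 and 276 normalised CPM at week 2 and 1141, 669, 834 and 799 at week 6, without overlap (log2 fold change 1.31 ± 0.21 (SE), adjusted p = 6.85e-05). MiR-497-5p, from the same precursor cluster, stood at 222, 137, 312 and 147 normalised CPM at week 2 and 516, 299, 274 and 478 at week 6, and library 3 of week 2 lay above 2 of the week 6 libraries (log2 fold change 0.94 ± 0.26 (SE), adjusted p = 0.00899). Of the 10 arms of miR-15, miR-16, miR-195 and miR-497, 4 were higher and none was lower. With the lane as a factor 2 were higher, as without the 3 libraries high in miR-449a-5p, and with library size only 1 was, with a median log2 fold change of 0.05. MiR-497-5p was at 0.44 (adjusted p = 0.349) with library size only and at 0.78 (adjusted p = 0.0573) without those 3 libraries.

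Few members of the other large seed families were called. None of the 6 members with the miR-30 seed and none of the 5 with the miR-17 seed was called. Of the 5 with the miR-25 and miR-92 seed, miR-92a-3p, a member of the proliferation-linked miR-17-92 cluster, was lower, at 4538 to 7747 normalised CPM at week 2 and 2773 to 3753 at week 6 (log2 fold change -0.79 ± 0.18 (SE), adjusted p = 0.00211), but not without the 3 libraries high in miR-449a-5p, at -0.60 (adjusted p = 0.0519). Of the 5 with the miR-34 seed, miR-34a-5p was higher. In the 16 families 4 held rises only, 6 falls only and 5 no call.

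The miR-181 family had 4 of 10 arms lower and none higher, with a median log2 fold change of -0.76. One arm was lower with the lane as a factor, and without the 3 libraries high in miR-449a-5p no arm was called. MiR-181b-5p and miR-181d-5p, which differ at 1 base, were at 930.2 to 1466 normalised CPM at week 2 and 447 to 921 at week 6 for the first and 472 to 520.3 normalised CPM at week 2 and 182 to 363 at week 6 for the second (adjusted p = 0.0105 and 0.00358), each lower without overlap. Without those 3 libraries they were at -0.60 (adjusted p = 0.146) and -0.85 (adjusted p = 0.0519). MiR-181b-5p was also not called with the lane as a factor, at -0.70 (adjusted p = 0.0998), or when only the 8 libraries were fitted, at -0.71 (adjusted p = 0.0601).

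MiR-125b-5p was at 3890.5 to 6011 normalised CPM at week 2 and 1853 to 4363 at week 6 and overlapped (log2 fold change -0.72 ± 0.23 (SE), adjusted p = 0.0215), and without library 4 of week 6 it was not called, at -0.52 (adjusted p = 0.0723), nor without library 3, at -0.70 (adjusted p = 0.0507), nor without the 3 libraries high in miR-449a-5p, at -0.55 (adjusted p = 0.214). Of the 11 arms of the Hox-cluster miR-10 and miR-196, 3 were lower, where 19.3% of all miRNAs were. Among them was miR-196a-5p, at 174 to 259 normalised CPM at week 2 and 92.5 to 139 at week 6 (log2 fold change -0.81 ± 0.21 (SE), adjusted p = 0.00622).

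Smaller rises were found in other lists. Of 10 arms of the miR-23, miR-27 and miR-24 clusters 4 were higher, among them miR-27a-3p at 490.1 to 785 normalised CPM at week 2 and 1088 to 1279 at week 6 (log2 fold change 0.90 ± 0.18 (SE), adjusted p = 0.00061) and miR-24-3p at 436 to 818 normalised CPM at week 2 and 867 to 1268 at week 6 (log2 fold change 0.79 ± 0.20 (SE), adjusted p = 0.00397). MiR-221-3p, which promotes growth of smooth muscle cells and was the 1 arm called of 4 of miR-221 and miR-222, was at 91.4 to 113 normalised CPM at week 2 and 160.0 to 272 at week 6 (log2 fold change 1.03 ± 0.20 (SE), adjusted p = 0.000523). None of the 3 was called with library size only, and their log2 fold changes were then 0.38, 0.29 and 0.51.

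Counts for the remaining lists were small, beside 12.0% of all miRNAs called higher and 19.3% called lower. One arm was higher in each of the miR-132 and miR-212 list (4 arms), the miR-148 and miR-152 list (6 arms), the miR-183 to miR-182 list (4 arms) and the miR-375 and miR-7 list (5 arms). In the miR-30 family 3 of 11 arms were lower, in the miR-17-92 and paralogous clusters 2 of 22 and in the miR-99, miR-100 and miR-125 families 2 of 11. None was called among 4 arms of miR-26, 2 of miR-98 and 11 of the brain miRNAs miR-124, miR-9, miR-128 and miR-138. The let-7 miRNAs were absent from the count table and could not be analysed here.

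MiR-122-5p, the main miRNA of hepatocytes, had the largest fall among called miRNAs that were counted in all 8 libraries. It stood at 202, 169, 73.5 and 75.1 normalised CPM at week 2 and 1.77, 3.78, 4.07 and 1.21 at week 6, which was a 49.6-fold difference between the ages (log2 fold change -5.63 ± 0.54 (SE), adjusted p = 5.74e-07). Its other arm, miR-122-3p, was counted in all week 2 libraries, with 3.67 to 8.04 normalised CPM, and with at most 1 read in a week 6 library. The intestinal and hepatic miR-192, miR-194 and miR-215, which belong to the same list, were not called in any of 5 arms. In the liver of the same animals miR-122-5p was at a median of 31845 CPM at week 2, scaled to each library's total without TMM. On that scale the uterus was at a median of 175 at week 2 and 2.39 at week 6. The adrenal gland was at a median of 187 at week 2, with libraries from 52.7 to 933, and of 44.1 at week 6. In lung the median rose from 31.2 to 113.

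MiR-202-5p, a miRNA of the gonads, had the largest fitted fall and varied widely within week 2. It stood at 1.37, 14.2, 45.2 and 379 normalised CPM at week 2 and 0.148, 1.55, 0.254 and 0 at week 6. Library 1 of week 2 lay below library 2 of week 6, so the groups overlapped, and library 4 held most of the signal (log2 fold change -7.89 ± 1.64 (SE), adjusted p = 0.00262). Without library 4 of week 2 the value was -5.42 (adjusted p = 0.00268).

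Of the 21 measured arms of miR-202 and the testis cluster of chromosome X, 8 were lower and none was higher, and 16 of the 21 were at 3 counts or fewer throughout 1 or both ages. Their summed level was 4.86, 30.0, 59.7 and 530.6 normalised CPM in the week 2 libraries and 3.12 to 5.77 at week 6. MiR-871-3p stood at 0.304, 4.76, 3.44 and 49.7 normalised CPM at week 2 and 0.591, 0.222, 0.509 and 0.173 at week 6 (log2 fold change -5.17 ± 1.27 (SE), adjusted p = 0.00662), and without library 4 of week 2 it was at -2.85 (adjusted p = 0.0085). MiR-881-3p stood at 1.67, 3.79, 2.38 and 30.7 normalised CPM at week 2 and 2.36, 1.55, 1.27 and 2.42 at week 6 (log2 fold change -2.27 ± 0.75 (SE), adjusted p = 0.0299), and without library 4 of week 2 it was at -0.45 (adjusted p = 0.484). MiR-743b-3p was at -1.20 (adjusted p = 0.259) without that library, in place of -3.12.

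Without the 3 libraries high in miR-449a-5p, 1 of the 21 arms was still called lower, and miR-871-3p was at -1.80 (adjusted p = 0.191) and miR-743b-3p at -1.08 (adjusted p = 0.484). A neighbouring group on chromosome X behaved alike in library 4 of week 2. MiR-201-5p stood at 8.65, 12.9, 28.3 and 119.6 normalised CPM at week 2 and 9.01, 5.77, 4.58 and 5.54 at week 6 (log2 fold change -2.74 ± 0.64 (SE), adjusted p = 0.00397), and miR-3585-3p at 2.12, 2.60, 11.9 and 19.5 normalised CPM at week 2 and 3.10, 1.11, 0.254 and 0.866 at week 6 (log2 fold change -2.60 ± 0.71 (SE), adjusted p = 0.00948), both with overlapping groups. Without library 4 of week 2 they were at -1.37 (adjusted p = 0.00617) and -1.85 (adjusted p = 0.0403). With the lane as a factor neither was called, at -1.27 (adjusted p = 0.319) and -1.47 (adjusted p = 0.176), and without the 3 libraries high in miR-449a-5p miR-3585-3p was at -1.99 (adjusted p = 0.0655).

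MiR-92b-3p, named after its values were seen, followed miR-449a-5p. It stood at 41.0, 423, 68.2 and 644 normalised CPM at week 2 and 41.1, 170.4, 31.8 and 34.3 at week 6, with the same 3 libraries high, and did not pass the test (log2 fold change -2.09 ± 0.79 (SE), adjusted p = 0.0596). It was called lower in 7 of 16 alternatives and was at -0.49 (adjusted p = 0.328) without those libraries. Whether the 3 libraries held other tissue than the rest was not tested.

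**Figure D4:**
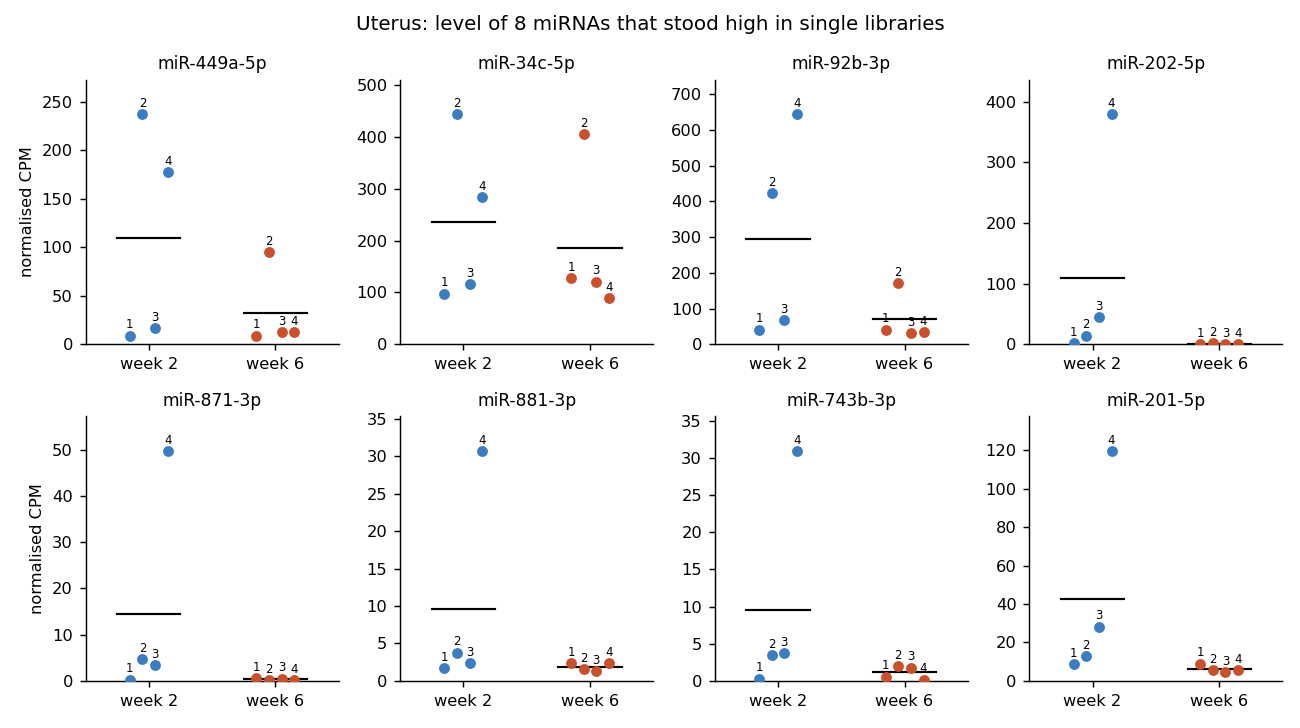
Level of 8 miRNAs (vertical axes, normalised CPM, each starting at 0) in each uterus library at week 2 (blue) and week 6 (orange), with library numbers and a black line at the mean of 4. Libraries 2 and 4 of week 2 and library 2 of week 6 are high in miR-449a-5p, miR-34c-5p and miR-92b-3p, and library 4 of week 2 is the highest of all 8 in the 5 other miRNAs.

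Whether the uterus changed differently from the rest of the body was tested against 9 other organs of the same females, which were adrenal gland, brain, heart, kidney, liver, lung, skeletal muscle, spleen and thymus, in 1 fit of 80 libraries. The study reports poorer RNA integrity for the spleens of the youngest rats than for most other samples. Those spleens form the week 2 side of the spleen change and enter the mean of the 9 organs. With 7 organs, without spleen and thymus, 21 of the named organ differences kept direction and side of the threshold and 1 turned. The week 6 against week 2 change of the uterus exceeded the mean change of the 9 organs at least 2-fold for 24 miRNAs (3.9%) and fell short of it for 30 (4.87%), at an adjusted p-value under 0.05, or 8.77% in either direction. MiR-146b-5p had the largest excess of those at 10 normalised CPM or more (log2 difference 2.96 ± 0.45 (SE), adjusted p = 1.23e-06). Over the 9 organs its change was 0.35 on average, from -0.88 to 1.10, and it was called in none of them. MiR-21-5p was higher in the uterus by 2.14 ± 0.16 (SE) on the log2 scale (adjusted p = 7.72e-18), and its change in the other organs ran from -0.62 to 0.81.

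The other leading differences were those of miR-21-3p (log2 difference 2.74 ± 0.31 (SE), adjusted p = 8.06e-11), miR-147 (log2 difference 2.66 ± 0.47 (SE), adjusted p = 2.21e-05), miR-293-5p (log2 difference 2.49 ± 0.61 (SE), adjusted p = 0.00209) and miR-203a-3p (log2 difference 2.16 ± 0.50 (SE), adjusted p = 0.00127). The last was not called without the 3 libraries high in miR-449a-5p, at 1.91 (adjusted p = 0.0615). MiR-223-3p, called higher in 6 of the 9 organs, still rose more in the uterus (log2 difference 2.12 ± 0.24 (SE), adjusted p = 8.06e-11). For miR-143-3p the mean change elsewhere was -0.01, and the uterus differed from it (log2 difference 1.14 ± 0.17 (SE), adjusted p = 6.76e-07). For miR-150-5p the mean change elsewhere was 0.33, called higher in 2 of the 9, and the uterus differed from it (log2 difference -1.27 ± 0.27 (SE), adjusted p = 0.00036).

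MiR-29a-3p was called higher at week 6 in all 9 other organs, by 0.56 to 2.78 on the log2 scale, and the difference to the uterus did not pass the test (log2 difference 0.02 ± 0.20 (SE), adjusted p = 1). MiR-22-3p was called higher in 8 of the 9, again with no difference past the test (log2 difference 0.21 ± 0.16 (SE), adjusted p = 0.478). For miR-200b-3p the difference was as large as 1.37 but not called (SE 0.86, adjusted p = 0.345).

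On the falling side, the lowest were miR-202-5p (log2 difference -7.63 ± 1.49 (SE), adjusted p = 0.000141) and miR-122-5p (log2 difference -5.17 ± 0.91 (SE), adjusted p = 2.22e-05), followed by miR-201-5p (log2 difference -3.05 ± 0.50 (SE), adjusted p = 6.57e-06), miR-881-3p (log2 difference -3.01 ± 0.80 (SE), adjusted p = 0.00507) and miR-3585-3p (log2 difference -2.57 ± 0.62 (SE), adjusted p = 0.00163). Without library 4 of week 2 the difference was -5.16 (adjusted p = 0.0012) for miR-202-5p, -1.69 (adjusted p = 0.00433) for miR-201-5p and -1.81 (adjusted p = 0.0383) for miR-3585-3p. MiR-881-3p was not called without that library, at -1.24 (adjusted p = 0.37). MiR-351-5p was called lower in 8 of the 9 other organs, with a mean of -0.97 over all 9, and fell further in the uterus (log2 difference -1.08 ± 0.21 (SE), adjusted p = 0.000114). MiR-335 was called lower in 7 of the 9, with a mean of -1.04, and with a difference of less than 2-fold (log2 difference -0.97 ± 0.23 (SE), adjusted p = 0.00157). MiR-204-5p, abundant in pigmented and secretory epithelia and named after its values were seen, had a mean change of 0.22 elsewhere and differed in the uterus (log2 difference -1.64 ± 0.25 (SE), adjusted p = 1.23e-06).

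The miRNAs of the Dlk1-Dio3 region fell in several organs. Of the 81 listed, 5 were called lower in the uterus than in the mean of the others, where 4.87% of all miRNAs were. The median log2 change of the 81 in this fit was -1.88 in uterus, -4.49 in liver, -1.87 in skeletal muscle, -1.78 in thymus, -1.33 in lung, -1.16 in spleen, -1.09 in heart, -0.32 in brain, -0.05 in adrenal gland and 0.54 in kidney. MiR-127-3p was called lower in 6 of the 9 organs, and the uterus was not called different from their mean (log2 difference -0.83 ± 0.36 (SE), adjusted p = 0.12). The median change of the 12 arms of the miR-322 to miR-450 cluster was -1.72 in uterus and -1.34 to -0.25 in the other organs, and 4 of them were called lower in the uterus. These medians are to be read beside those of all miRNAs in this fit, which were -0.35 in uterus and -0.24 to 0.03 in the other organs. This fit called 66 miRNAs higher and 179 lower between the ages in the uterus, where the fit of the uterus alone called 74 and 119.

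**Figure D5:**
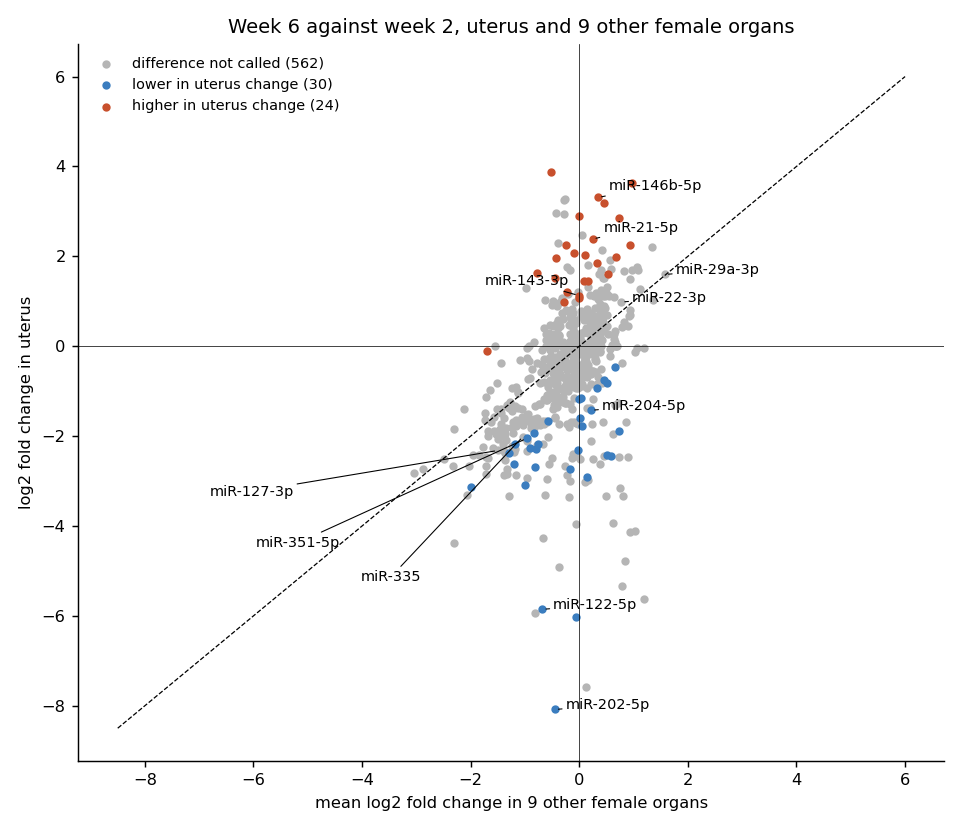
Log2 fold change of week 6 against week 2 in the uterus (vertical axis) over the mean of that change in 9 other female organs (horizontal axis) for every miRNA, with a dashed line where both are equal. Orange and blue points are the 24 and 30 miRNAs whose uterus change was at least 2-fold above or below the mean of the other organs.

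The ratio of the arms of a precursor does not depend on depth or scaling, and was tested with limma on log2 of the 5p over the 3p counts for 49 precursors with both arms at a mean of at least 50 counts. Of these, 3 shifted toward 5p (6.12%) and 1 toward 3p (2.04%) at a Benjamini-Hochberg adjusted p-value under 0.05. For miR-30a the log2 ratio was 5.28, 5.60, 5.12 and 5.11 at week 2 and 5.90, 5.99, 6.53 and 6.35 at week 6, a change of 0.92 ± 0.19 (SE, adjusted p = 0.00373). For miR-30e it was 3.14, 3.49, 3.44 and 2.76 at week 2 and 4.11, 4.13, 4.13 and 4.24 at week 6, a change of 0.95 ± 0.20 (SE, adjusted p = 0.00373). Neither overlapped between the ages. The 5p arms of miR-30a and miR-30e differ by 1 base, as do their 3p arms, so that the division of reads between them is uncertain.

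MiR-532 changed by 0.85 ± 0.22 (SE, adjusted p = 0.0209) toward 5p, and miR-542 by -1.22 ± 0.33 (SE, adjusted p = 0.0209), toward 3p. The first was lost without library 3 of week 2 (0.74, adjusted p = 0.0858), library 3 of week 6 (0.62, adjusted p = 0.0877) or library 4 of week 6 (0.84, adjusted p = 0.052). The second was lost without library 3 (-1.04) or library 4 (-1.13) of week 2 and without library 3 (-1.04) or library 4 (-1.14) of week 6, with adjusted p-values of 0.0647 to 0.0887. MiR-322, the fifth by p-value, changed by 0.83 ± 0.28 (SE, adjusted p = 0.0719) and was called toward 5p without library 1 (0.91) or library 4 (1.03) of week 2.

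Uterus levels at the later ages, from 4 libraries each, are given as values only. MiR-127-3p was at a mean of 823 normalised CPM at week 21 and 169 at week 104, and miR-434-3p at 63.6 and 16.9. MiR-21-5p was at 22661 and 23076, miR-29a-3p at 2494 and 3459, miR-146b-5p at 1550.1 and 2155, and miR-203a-3p at 168 and 101.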

How the data were processed

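Small RNA was sequenced from ground uterus tissue of 4 female rats at each age. The deposited values are raw counts, which the authors obtained by assigning reads to miRNAs. Per the submitters' processing notes the reads were handled with fastp 0.23.2 and Bowtie 1.3.1 and the build was rn7. Reads that fit several near-identical miRNAs may have been divided between them, and the counts hold no molecular identifiers. The table holds 616 miRNAs, of which 12 are candidates that the study named by position, and no column was left without a sample. Sequencing lanes were read from the study's own sample table. Of the names, 551 matched RefSeq mature miRNAs, all with the sequence of the count table, and RefSeq gene order (GRCr8) was used for neighbours only.

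Counts were fitted with edgeR 4.0.16 (quasi-likelihood, TMM scaling, R 4.3.3) over the 4 ages of the uterus, and in a second fit over 80 libraries of 10 female organs at weeks 2 and 6, without a filter and with Benjamini-Hochberg adjustment over all miRNAs. A miRNA was called at an adjusted p-value under 0.05, for the organ comparison also with a log2 difference of at least 1. The SE given with an edgeR value is the absolute log2 value divided by the square root of the test's F statistic. It is therefore not a separate estimate of the spread. Arm ratios used limma 3.58.1 with 0.5 added to the counts. On simulated counts, 153 of 200 miRNAs changed 4-fold were recovered with 5 false calls among 416 for the age comparison of all 616, 138 of 200 with 3 false calls for the organ comparison, and 10 of 10 arm ratios with 0 false among 39. The simulated counts had a constant spread, no libraries standing apart and, for the age and organ comparisons, as many rises as falls. These rates need not hold for the real counts. Alternatives were library size only, DESeq2 1.42.0, only the 8 libraries, a mean count of at least 10, edgeR's expression filter, the lane, the replicate block, 7 organs, a pseudocount of 1 or a mean of at least 200 for arms, and leaving out each library. The fit without the 3 libraries over 50 normalised CPM of miR-449a-5p was chosen after seeing the data.

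Named miRNAs were the 15 largest rises and falls with a mean of at least 10 CPM in the higher group, the 10 most abundant at each age, 5 in each direction of the organ comparison, 5 arm ratios and up to 6 members of each of 31 lists. The members, lists and tests were chosen with earlier results of these data known. Replicates are libraries of different rats. Python 3.11.15, pandas 2.3.3, NumPy 2.4.6 and matplotlib 3.10.9 were used for summaries and plots.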

Additional observations from a re-analysis of the deposited data

Results flagged for a closer look

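Single libraries lay apart from the other 3 of their group in 16 of 166 groups tested by Dixon's criterion, which flags about 1 in 20 groups by chance, and 8 of the 16 were library 4 of week 2. In that library miR-202-5p was at 379 normalised CPM, miR-871-3p at 49.7, miR-743b-3p at 30.9, miR-881-3p at 30.7, miR-351-5p at 9336, miR-322-5p at 1839.7 and miR-291a-3p at 2.52, each above the rest of week 2, and miR-221-3p was below it at 91.4. Library 2 of week 6 was high in miR-449a-5p (95.3), miR-34c-5p (406), miR-92b-3p (170.4) and miR-202-5p (1.55). Library 1 of week 6 was low in miR-34a-5p (16.0) and miR-191a-5p (10009), library 3 of week 6 was high in miR-27b-3p (18919.5) and library 4 of week 6 in miR-322-5p (312).

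For 16 named miRNAs the week 6 against week 2 change of the uterus differed from the mean change of 9 other female organs by edgeR's quasi-likelihood test. The log2 differences were 2.96 for miR-146b-5p, 2.74 for miR-21-3p, 2.66 for miR-147, 2.49 for miR-293-5p, 2.16 for miR-203a-3p, 2.14 for miR-21-5p, 2.12 for miR-223-3p and 1.14 for miR-143-3p on the higher side. On the lower side they were -7.63 for miR-202-5p, -5.17 for miR-122-5p, -3.05 for miR-201-5p, -3.01 for miR-881-3p, -2.57 for miR-3585-3p, -1.64 for miR-204-5p, -1.27 for miR-150-5p and -1.08 for miR-351-5p. Of these, 5 in each direction were named for their rank in this same comparison, and miR-204-5p after its values were seen. Their calls follow from that choice and are no separate test. Over all miRNAs 8.77% were called in either direction.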

How the results depend on the processing

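With library size only, 30 miRNAs were higher and 193 lower (21 and 166 by at least 2-fold), and 58 fell further in the uterus than in the other organs. With the lane as a factor, 38 were higher and 66 lower (58 by at least 2-fold), of which 36 and 66 were among the 74 and 119. Without the 3 libraries high in miR-449a-5p, 69 were lower (66 by at least 2-fold) and 14 rose more in the uterus than elsewhere. With a mean count of at least 10, 19 fell further than elsewhere. Leaving out each library gave 66 to 76 higher and 96 to 119 lower (46 to 52 and 84 to 108 by at least 2-fold), 19 to 30 and 23 to 38 against other organs, and 2 to 7 arm ratios toward 5p and 0 to 2 toward 3p (limma, 13 precursors at an unadjusted p under 0.05 with all libraries).

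Directions turned, for uncalled values unless stated, with library size only for miR-10b-5p (-0.33), miR-10a-5p (-0.45), miR-27b-3p (-0.28) and miR-191a-5p (-0.15), and against other organs for miR-29a-3p (-0.24) and miR-22-3p (-0.10). With the lane they turned for miR-10b-5p (-0.28) and miR-10a-5p (-0.30). Leaving out libraries gave -0.037 to 0.45 for miR-10b-5p, -0.14 to 0.25 for miR-10a-5p, -1.07 to 0.16 for miR-34c-5p and -0.12 to 0.11 for miR-29a-3p against other organs. Without the 3 libraries miR-881-3p, called with them, was at 0.17, miR-34c-5p at 0.18 and miR-29a-3p against other organs at -0.13, and with 7 organs the last was at -0.23. The cause was not tested.

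Same-numbered libraries of weeks 2 and 6 did not deviate together (r = 0.03, 0.22, -0.18 and -0.30), so the numbers do not pair them. The replicate block gave 71 higher and 108 lower (49 and 96 by at least 2-fold), 3 and 1 arm ratios, and with the rat as the block 23 and 30 against other organs. Of 71 named and called miRNAs, 42 were called in every alternative run. Of the values of named miRNAs under alternatives, 1544 kept direction and side of the threshold, 91 lost the call, 18 gained it and 19 turned. Counts of 3 or fewer limit 97 miRNAs at both ages.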

Other observations

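A group of neighbouring miRNAs on chromosome 1, miR-291a-3p, miR-291b, miR-292-3p, miR-292-5p and miR-293-5p, known from early embryonic cells, was higher at week 6 in all 5 members by edgeR's quasi-likelihood test, and was picked out after its values were seen. MiR-291a-3p stood at 0.607, 0.325, 0.264 and 2.52 normalised CPM at week 2 and 2.51, 5.11, 6.10 and 2.94 at week 6 (log2 fold change 2.24 ± 0.49 (SE), adjusted p = 0.00154). Library 4 of week 2 was as high as library 1 of week 6. Without library 4 of week 2 the change was 3.25 (adjusted p = 1.03e-05). MiR-292-3p was at most at 3 reads in a week 2 library and stood at 1.18 to 3.81 normalised CPM at week 6. MiR-293-5p, the most abundant of the 5, stood at 44.0 to 63.7 normalised CPM in the libraries of week 21 and at 47.7 to 53.7 at week 104.

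Of the 12 candidate miRNAs named by position in the count table, 3 were called lower at week 6 and none was higher. Of all miRNAs, 19.3% were lower and 12.0% higher. The 3 were at mean levels of 0.921 to 1.33 normalised CPM at week 2 and 0.154 to 0.265 at week 6. At week 6 these means lay below 0.598 normalised CPM, the mean level that 3 counts amount to.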
